A study of Rattus norvegicus with 4 samples.

Results

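The comparison described here is that of ischemic gracilis muscle after 14 days of reperfusion with sham-operated gracilis muscle. The gracilis is a long flat muscle of the inner thigh. Both muscles came from male Sprague-Dawley rats, an outbred strain. The injured muscle had 4 h of ischemia and then 14 days of reperfusion, and the control had a sham operation with neither agent nor genetic change added. RNA of the injured muscle was labelled with the red dye Cy5 and RNA of the sham muscle with the green dye Cy3, and both were hybridised to 1 Agilent rat array. It is 1 of 4 such arrays in the study, the others being of 1, 3 and 7 days of reperfusion. All gene probes of that array were used, 41012 in all on 41372 spots. They gave 23751 genes or transcripts that were well above background in at least 1 channel, of which 11977 carried a gene symbol.

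With 1 injured and 1 sham sample and no dye swap, no value has a replicate and no test was possible. Precision is limited by the single array, and dye effects of single probes cannot be told apart from differences between the muscles. Values are log2 ratios of injured over sham, and a gene is called higher or lower from 2-fold on, by size alone. Levels are normalized log2 intensities of 1 channel, and are compared only between samples of the same probe. As the only measure of spread, the injured level was also set against the sham channels of all 4 arrays, and the nearest of these gives the most cautious ratio. It is 0 where the injured level lay among the sham levels. The labels do not say whether 1 sham RNA served all 4 arrays. The day 14 array was scanned in another session than the other 3, so that session and time point cannot be told apart where days are compared.

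Of all genes measured, 747 (3.15%) were at least 2-fold higher in the injured muscle and 370 (1.56%) at least 2-fold lower, together 1117 (4.7%). At least 4-fold higher were 155 and lower 47, and at least 8-fold higher 30 and lower 8. The median log2 ratio of all genes was 0.05. Above every one of the 4 sham levels by 2-fold were 510 of the 747, and below every one by 2-fold were 247 of the 370. The sham channels of days 1 and 14 differed at least 2-fold in 125 genes, those of days 3 and 14 in 281 and those of days 7 and 14 in 791. With loess replaced by plain centring on the median, which moved the median of all genes from 0.05 to 0.27, the counts were 2884 higher and 96 lower, or 96.8% of the calls higher against 66.9% with loess. Taken relative to that new median they were 1550 and 169. Muscle creatine kinase, Ckm, had a level of 15.27 in sham and a saturated spot in injured muscle. Myoglobin, Mb, was likewise saturated in injured muscle. Both are muscle genes and do not tell the gracilis from another muscle. The sham also had bright spots of the slow and cardiac myosins Myh7 (16.50, saturated) and Myh6 (16.43), beside the fast Myh4 at 13.77. Levels of different probes are not compared, so the fibre type of the sham was not judged from them.

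**Figure D1:**
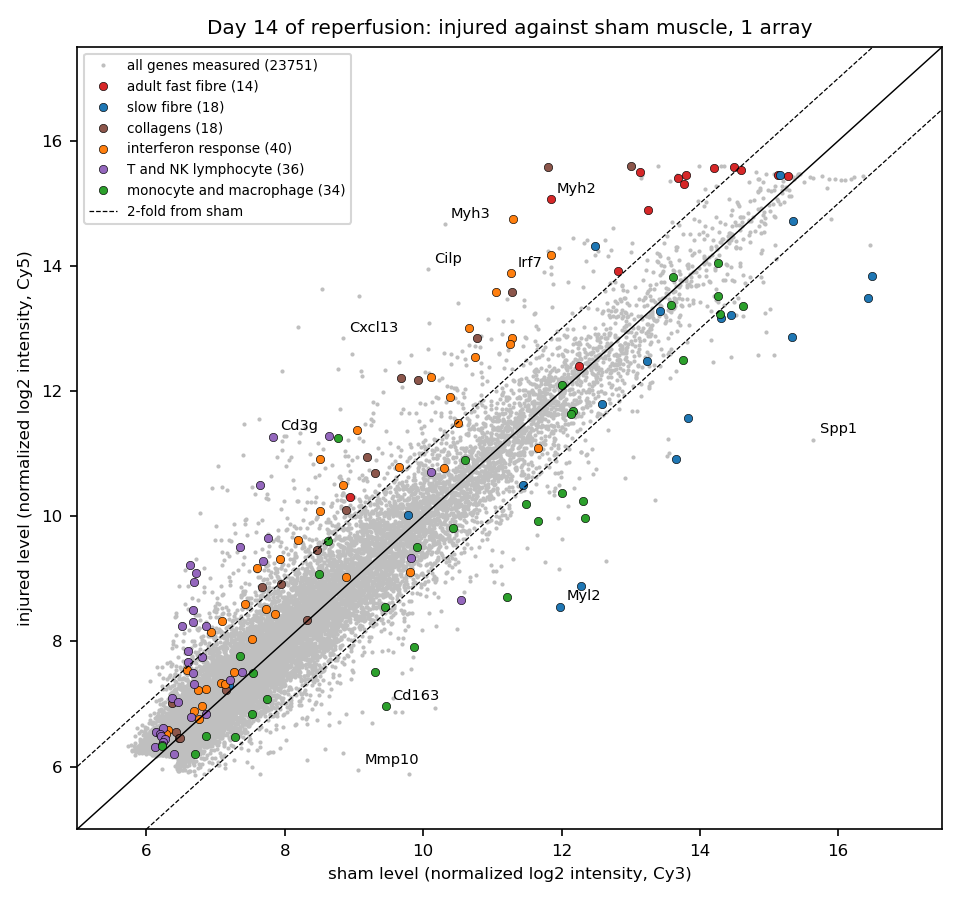
Level of each of the 23751 genes in sham muscle (x axis, Cy3) and in injured muscle (y axis, Cy5) on day 14, both as normalized log2 intensity, with members of 6 gene lists in colour and dashed lines at 2-fold. Most genes lie near the diagonal, slow fibre and macrophage genes reach below it, and fast fibre, collagen, interferon and lymphocyte genes lie mostly above it.

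Skeletal muscle that has lost its fibres rebuilds them from satellite cells, which divide, fuse into myotubes and then replace embryonic and perinatal myosin with adult isoforms. The adult isoform a fibre keeps, slow or one of the fast types, depends on its nerve and its load. Regrowth takes place among macrophages, lymphocytes and matrix-making fibroblasts, and where the matrix stays in place the muscle scars. MicroRNA-21, the subject of the study's title, is known for its rise in injured and fibrotic tissue.

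Myosin heavy chain is the motor of the thick filament, and its genes tell the age and type of a fibre. The skeletal genes lie next to each other on chromosome 10 of the rn4 assembly, and the cardiac and slow pair, Myh6 and Myh7, lies on chromosome 15. Their coding sequences are much alike, so some of their probes are shown. Probes were aligned only with each other and not with the RNA of another myosin. Whether a probe also binds the RNA of a related gene was therefore not tested. The Myh3 probe shown is the second one of that gene, not the one that stands for it below. Each is 60 bases long, as in the array's design, and capitals mark bases that are identical to the probe it was aligned with, without gaps. The perinatal and the embryonic probe were aligned with each other, as were the IIa and the IIb probe, and the Myh6 probe was aligned with that of Myh7.
Myosin-8, perinatal, chr10:53999978-54000037, plus strand: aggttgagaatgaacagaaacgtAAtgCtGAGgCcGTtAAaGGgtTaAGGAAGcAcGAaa
Myh3, embryonic, chr10:53799519-53799578, plus strand: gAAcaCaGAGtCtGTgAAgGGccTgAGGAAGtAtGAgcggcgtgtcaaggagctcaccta
Myh2, IIa, chr10:53889243-53889302, plus strand: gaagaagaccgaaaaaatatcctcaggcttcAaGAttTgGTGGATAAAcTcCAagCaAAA
Myh4, IIb, chr10:53953933-53953992, plus strand: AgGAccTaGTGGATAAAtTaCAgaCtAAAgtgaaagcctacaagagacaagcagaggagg
Myh6, alpha cardiac, chr15:33044576-33044983, minus strand: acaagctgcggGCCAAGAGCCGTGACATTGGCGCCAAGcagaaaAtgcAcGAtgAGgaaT
The perinatal and embryonic probes were identical at 23 of 38 overlapping bases, with no identical run longer than 6 bases. The IIa and IIb probes were identical at 20 of 29, with a longest run of 9. The Myh6 and Myh7 probes shared 34 of 49 bases and 1 unbroken run of 27, so the signals of those genes may not be separate.

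The developmental myosins had the highest ratios among the muscle genes described here. The probe described as Myosin-8, perinatal myosin, carried no gene symbol, and was found by its description after the values were seen. Its level was 13.63 in injured muscle and 8.54 in sham, and in the sham channels of days 1, 3 and 7 it was 6.27, 6.57 and 10.26. The ratio of 5.09 (34.1-fold) was the highest of all genes measured, and against the nearest sham channel it was 3.38. The sham levels themselves were thus far apart for this gene, yet all lay below the injured level. Embryonic myosin, Myh3, had a level of 14.66 in injured muscle and 10.31, 10.34, 10.45 and 10.56 in the sham channels of days 14, 1, 3 and 7, which left no overlap and made it 20.4-fold higher. Its second probe, printed above, gave 2.68. The embryonic cardiac-type troponin T, Tnnt2, which young fibres use, was higher at 2.23.

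The fast adult myosins were higher to unequal degrees. Myh2, of type IIa fibres, had a level of 15.07 in injured muscle against 11.84 in its own sham and 12.22 to 12.63 in the other shams, a ratio of 3.23 (9.36-fold) and of 2.44 against the nearest sham. The probe described as type IIx myosin, also without a symbol and chosen after its value was seen, was saturated in injured muscle at 15.59 against 13.04 in sham, and so at least 5.87-fold higher, with 1.13 left against the nearest sham. Myh4, of type IIb fibres, had a level of 15.31 against 13.77 in its own sham (2.90-fold), but 15.68 and 15.60 in the shams of days 1 and 3, so that it lay among the sham levels. On day 7 the ratios against that array's sham were 0.58 for Myh2, 2.55 for IIx and -0.78 for Myh4.

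The slow myosins went the other way. Myh7, the motor of slow fibres, had a level of 13.83 in injured muscle against 16.50 in its own sham, a saturated spot, and 16.59 to 16.79 in the others, so it was at least 6.32-fold lower. Myh6 had 13.49 against 16.43 in its own sham and 16.51 to 16.69 in the others, and was 7.63-fold lower. For both, their own sham was the nearest of the sham levels, so the ratio against the nearest sham was the same.

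The troponins and light chains split by fibre type in the same direction, but the fast ones depended on which sham was used. Of 14 measured genes of the adult fast fibre list, 10 were higher and none lower, with a median of 1.37 against 0.05 for all genes. Of 18 slow fibre genes, 9 were lower and 1 higher, with a median of -1.05. Only 4 of the fast genes were higher than all 4 sham levels by 2-fold, whereas all 9 of the slow genes were lower than all of them. Over the whole array this held for 510 of 747 higher and 247 of 370 lower genes. Several fast genes had saturated injured spots, whose levels are lower bounds. Their count and their ratios against the other shams may therefore be too low. The fast median was 0.67 against the mean of the 4 shams and 0.05 against the nearest, and the slow median -1.17 against the mean. With plain centring on the median the slow median was -0.25 (-0.52 relative to all genes), and Tnni1 came to -0.36.

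Among fast genes, parvalbumin, Pvalb, a calcium buffer that speeds relaxation, had a level of 15.50 against 13.14 in its own sham and 13.94 to 14.20 in the others (5.16-fold higher). Myoz1, a Z-disc protein of fast fibres, was at 1.72 and at 1.00 against the nearest sham. The fast calcium pump Atp2a1 was 2.14-fold higher, with a log2 ratio of 1.01 against the nearest. The fast troponin T, Tnnt3, was at 1.65 and the light chain Myl1 at 1.63, but only at 0.29 and 0.07 against the nearest sham. Myl11, the fast regulatory light chain, and Actn3, fast alpha-actinin, were at least 2.59-fold and 2.14-fold higher with saturated injured spots. The levels read from those spots lay among the sham levels. They are lower bounds, so where the true levels lay is not known. Troponins Tnni2 and Tnnc2 had saturated injured spots and were at least 1.12-fold and 1.26-fold higher than their own sham, with sham levels of 15.28 to 16.90 and 15.12 to 16.93. The mean level of the fast list was 13.37 in the sham of day 14, the lowest of the 4 shams, 14.46 in the highest sham and 14.70 in injured muscle.

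Among slow genes, the ventricular and slow light chain Myl2 had a level of 8.55 against 11.98 in its own sham and 11.73 to 11.96 in the others, and was 10.8-fold lower. Ankrd2, a stretch-responsive ankyrin repeat protein, had 8.88 against 12.28 and was 10.53-fold lower. Slow troponin T, Tnnt1, was at -2.75, slow and cardiac troponin C, Tnnc1, at -2.46, the light chain Myl3 at -2.26 and slow troponin I, Tnni1, at -1.23. None of these 6 genes, picked from the 9 lower ones, overlapped a sham level. Of all 370 lower genes, 247 were below every sham level by 2-fold. The slow calcium pump Atp2a2 was at -0.79. Sarcolipin, Sln, an inhibitor of that pump and of its fast relative, was the exception, with a level of 14.32 against 12.48 and a ratio of 1.84. Its other probe was at 0.58, short of 2-fold. Myoglobin, calsequestrin Casq2 and phospholamban Pln, a pump inhibitor, were at 0.10 to 0.29, the injured spot of myoglobin being saturated.

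**Figure D2:**
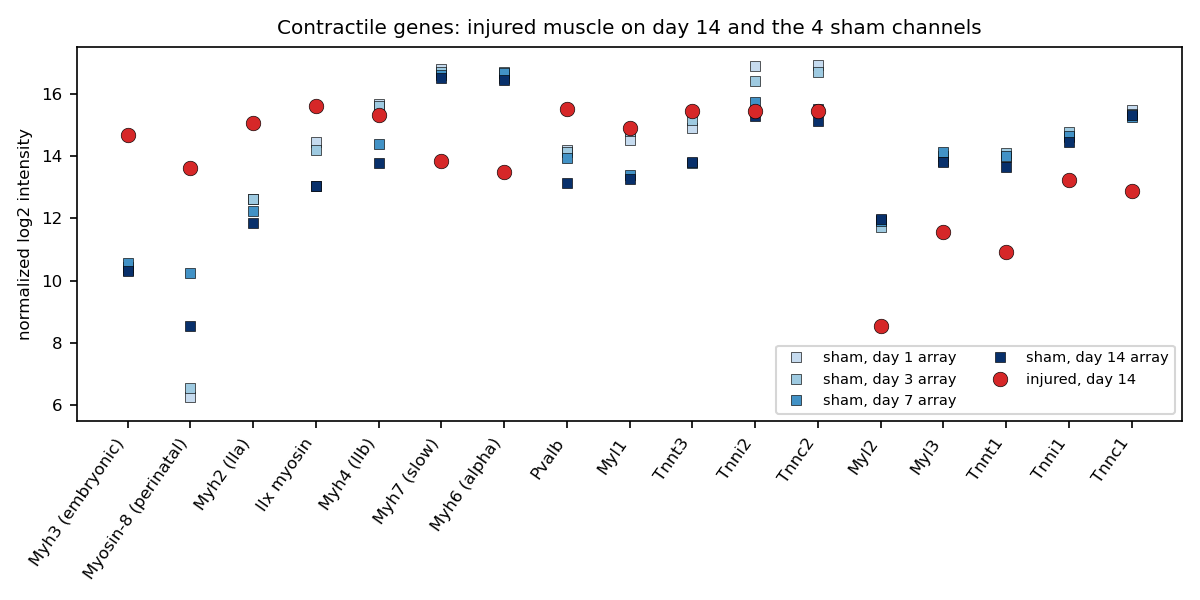
Normalized log2 intensity of 17 contractile genes in injured muscle on day 14 (red circles) and in the sham channels of the 4 arrays (blue squares, darkest for day 14). Embryonic and perinatal myosin, Myh2 and Pvalb lie above all 4 sham levels and the slow genes below all of them, while Myh4 lies among the sham levels. Tnni2 and Tnnc2 are drawn among the sham levels too, but their injured spots were saturated and are lower bounds.

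Genes of the programme that makes fibres lay on both sides of sham. Of 20 measured genes of embryonic and regenerating muscle, 3 were higher and 4 lower, with a median of 0.23. The 3 higher ones were Myh3, Tnnt2 and the gamma subunit of the fetal acetylcholine receptor, Chrng, which is at the junction before the adult subunit replaces it (1.31). Myogenin, Myog, which starts the fusion programme, had a level of 11.93 against 13.15 in its own sham and 12.84 to 13.40 in the others (2.33-fold lower). Myod1, which commits cells to muscle, was at 0.12. The fusion protein myomaker, Mymk, was at 0.83, and on day 7 at 2.70. The light chain Myl6b was at -2.72, the adhesion receptor Itga7 at -1.31 and Mustn1, a gene of regenerating muscle and bone, at -1.70.

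Genes of the nerve-muscle contact showed both receptor forms above sham. Of 23 such genes, 4 were higher and 1 lower (median -0.05). Higher were the adult receptor subunit Chrne at 1.35, the fetal subunit Chrng, the nerve-derived organiser agrin, Agrn, at 1.31 and the common subunit Chrna1 at 1.18. The delta subunit Chrnd was at -0.79. The denervation marker Runx1 was at -0.98 and the neural cell adhesion molecule Ncam1 at least 1.03-fold higher, with a sham spot not well above background. Galanin, Gal, a neuropeptide, was the 1 lower gene at -1.41.

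Growth factor genes of the embryonic programme remained above sham. Insulin-like growth factor 2, Igf2, an imprinted fetal growth factor, had a level of 13.08 against 10.08 in its own sham and 9.48 to 10.02 in the others, 7.99-fold higher with no overlap. On day 7 its ratio was 4.61. All 10 measured imprinted growth genes were above 0, as were 13551 of all 23751 genes. The median of the 10 was 0.79. Of them 4 were higher, and 2 were higher than all 4 shams by 2-fold. The 4 were Igf2, the receptor adaptor Grb10 (1.64, with its other probes down to 0.01), the sarcoglycan Sgce (1.03) and the transcription factor Plagl1 (1.01). Of 12 genes of the insulin-like growth factor system, 4 were higher and none lower. Besides Igf2 these were the binding proteins Igfbp6 (2.09), Igfbp5 (1.79) and Igfbp4 (1.35), while Igf1, the postnatal growth factor, was at 0.81 and its receptor Igf1r at -0.40. Genes of atrophy and autophagy had a median of -0.18, which turned to 0.30 with plain centring on the median (0.03 relative to all genes), with the ubiquitin ligases Trim63 at -0.59 and Fbxo32 at -0.54. Myostatin, Mstn, which limits muscle mass, was at least 1.07-fold higher with a sham spot not well above background, and its antagonist follistatin, Fst, was at 0.70.

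Genes of the sodium pump lay on both sides of sham. Of 11 measured genes, 5 were higher and 1 lower, and all 6 lay outside the 4 sham levels by 2-fold. So did 510 of all 747 higher and 247 of all 370 lower genes. Atp1b4, a muscle beta-type protein, had a level of 10.46 against 6.94 in its own sham and 6.75 to 6.93 in the others (11.4-fold higher). The regulators Fxyd6 (2.60) and Fxyd1, phospholemman (1.01), and the subunit Atp1b2 (1.77) were also higher.

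Genes of energy supply differed by pathway in how many were called. Of 28 genes of glycolysis and glycogen use, 9 were higher and none lower, with a median of 0.45. Muscle phosphoglycerate mutase, Pgam2, had 15.46 against 13.16 to 13.40 in the shams (4.92-fold higher), muscle phosphofructokinase Pfkm at 1.69 and the insulin-responsive glucose carrier Slc2a4 at 1.61. The general isoforms Pgam1 and Eno1 were below 0 but short of 2-fold, at -0.55 and -0.77. With plain centring on the median they came to 0.27 and 0.06, against 0.27 for all genes. The muscle enolase Eno3 was at least 2.38-fold higher. Its saturated injured spot read a level among the sham levels, which is a lower bound. AMP deaminase was split beyond 2-fold, the muscle form Ampd1 being at 1.78 and the erythrocyte form Ampd3 at -1.94. Of 48 oxidative phosphorylation genes none reached 2-fold. Above 0 were 44, as were 13551 of all 23751 genes, with a median of 0.50 and a range from -0.87 for Cox5a to 0.89. Their median was 0.15 against the nearest sham. In the tricarboxylic acid cycle 1 of 22 was higher, with a list median of 0.33 that was 0.05 against the nearest sham. It was Mdh1, cytosolic malate dehydrogenase, at 1.33. In fatty acid use 3 of 26 were higher, among them the muscle fatty acid carrier Fabp3 at 1.12.

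Matrix genes were the second large group above sham. Of 18 measured collagen genes 10 were higher and none lower, with a median of 1.21. Of the 10, 8 were higher than all 4 shams by 2-fold, as were 510 of all 747 higher genes. All 18 were well above background in injured muscle and 14 in sham, and the others could hardly come out lower. Col1a1, the main chain of scar collagen, was saturated in injured muscle at 15.58 against 11.80 in its own sham and 12.32, 13.17 and 14.40 in the shams of days 7, 3 and 1. It was at least 13.8-fold higher against its own sham and 1.18 on the log2 scale against the nearest, so the size of this fold depended on the sham. Col3a1, the collagen of early scar, was also saturated and at least 6.08-fold higher. Col1a2 had 13.58 against 11.12 to 11.69 in the shams (4.90-fold higher), and Col16a1, Col6a1 and Col5a2 were at 2.53, 2.25 and 2.08. Col14a1 and Col8a1 were at -0.02 and 0.02. In a bulk sample, more cells of a type and more RNA per cell cannot be told apart, here or in the groups below.

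Of 34 matricellular and proteoglycan genes 13 were higher and 1 lower, with a median of 0.70. Cilp, cartilage intermediate layer protein, which binds growth factors in the matrix, had a level of 13.95 against 10.07 to 10.45 in the shams (14.7-fold higher). Its other probe gave 2.42. Periostin, Postn, made by activated fibroblasts, had 11.20 against 7.66 to 8.12 and was 9.47-fold higher. The small leucine-rich proteoglycans Ogn, at 12.25 against 9.11, and Aspn, at 11.34 against 8.22, were 8.80-fold and 8.65-fold higher, and their probes lie within 1 stretch of chromosome 17 (chr17:20988620-20988679 and chr17:21035836-21035895, minus strand). Fibromodulin, Fmod, was at 2.17 and biglycan, Bgn, at 2.05. None of these 6 genes, picked from the 13 higher ones, overlapped a sham level. Above all 4 shams by 2-fold were 12 genes of the list, and 510 of all 747 higher genes.

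The 1 lower member was also the lowest gene of the whole array. Osteopontin, Spp1, a secreted matrix and cytokine-like protein of macrophages and injured tissue, had a level of 11.23 in injured muscle and 15.64, 14.88, 15.46 and 14.72 in the sham channels of days 14, 1, 3 and 7. It was thus 21.3-fold lower than its own sham and -3.50 on the log2 scale against the nearest. All 4 shams had a high signal of this gene, and the injured muscle on day 14 had the low one.

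Collagen-processing enzymes and proteases did not follow as a block. Of 20 processing genes 6 were higher and none lower, with a median of 0.24 that was 0.00 against the nearest sham. They included the procollagen enhancer Pcolce (1.88) and the cross-linking oxidases Loxl1 (1.74), Loxl2 (1.60) and Lox (1.08). P4hb, a subunit of the prolyl hydroxylase that also folds proteins in the endoplasmic reticulum, was at -0.81. Of 25 proteases and inhibitors 5 were higher and 6 lower, the highest being the kallikrein described further on. The gelatinase Mmp2 had 12.60 against 10.14 to 10.41 (4.56-fold higher), its activator Mmp14 was at 2.06 and macrophage elastase Mmp12 at 1.63. The stromelysins lay low, Mmp10 with 5.94 against 9.06 to 9.45 (8.71-fold lower) and Mmp3 with 6.11 against 8.26 to 8.62 (4.65-fold lower). Their injured levels were close to 5.88, the lowest level well above background in that channel, which limits those folds. The inhibitor Timp1 was at -1.90 and the plasminogen activator Plau at -1.22, whereas Timp3 was at 0.17.

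Fibroblast and Wnt genes had clear leaders. Secreted frizzled-related proteins bind Wnt ligands, and Sfrp2 had 11.29 against 7.97 to 8.15 (9.62-fold higher), with its other probes down to 1.87, while Sfrp4 had 11.72 against 8.67 to 8.94 (7.59-fold higher). Of 18 Wnt genes 5 were higher and none lower. All 18 were well above background in injured muscle and 13 in sham, and the others could hardly come out lower. Of 20 fibroblast and fibro-adipogenic genes 8 were higher and 1 lower, among them Cthrc1, a collagen triple helix protein of activated fibroblasts (2.86), and dermatopontin, Dpt (2.37). Podoplanin, Pdpn, was the lower one at -2.21, and the receptor Pdgfra, which defines these cells, was at -0.15. The mean level of this fibroblast list was 9.14 in injured muscle against 8.49 to 8.58 in the shams. All 20 of its genes were well above background in injured muscle and 15 in sham, so its counts too lean upward. The ligands and inhibitors of the TGF-beta family stayed near sham. Tgfb1 was at -0.06 and Tgfb3 at 0.74, and of 32 genes 1 was higher, the latent binding protein Ltbp1 at 1.15, and 1 lower, the induced matrix protein Tgfbi at -1.29.

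Tissue kallikreins, serine proteases that release kinins, formed a cluster of high probes on chromosome 1. Klk1 had a level of 12.35 against 8.76 in its own sham and 7.73 to 8.81 in the others (12.01-fold higher), at chr1:94628741-94628800. Klk1c2 had 10.41 against 6.30 to 7.17 (9.51-fold higher) and Klk1c8 9.63 against 6.41 to 7.07 (5.87-fold higher). The array's design describes the first of these as kallikrein 7 and the last as kallikrein 6. Probes described as glandular kallikrein-3 were at 4.06 and 3.35. Of 14 measured kallikrein probes found by description, after the values were seen, 4 were higher and none lower, with a median of 0.20. The probe of Klk1c2 was not among these 14. Several of the 14 were kept through the injured channel alone and could hardly come out lower. The genes of this family are near-identical copies, so which member a probe reads is uncertain.

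The third group above sham was that of lymphocytes, and its strongest probes were of immunoglobulin. These carried no gene symbol, and were found by their descriptions after the values were seen. Of 85 immunoglobulin chain probes, 48 were measured. Of these 48, 14 were higher and none lower, with a median of 0.46. Many of the 48 had a sham spot not well above background and were kept through the injured channel alone. Such probes could hardly come out lower, so the counts and the median lean upward. An antibody light chain probe had a level of 13.03 in injured muscle and 8.18, 7.20, 7.00 and 7.60 in the shams of days 14, 1, 3 and 7, and was 28.7-fold higher. A kappa chain probe had 13.52 against 9.07 in its own sham and 7.46 to 7.52 in the others (21.9-fold higher). A probe described as Igha protein, at chr6:138442437 in rn4, had 12.33 against 7.96 in its own sham and 7.49 to 7.81 in the others (20.6-fold higher). A second probe with that description, at chr6:138250705, was at 2.98. Which heavy chain either of them reads was not tested. Kappa probes designed on other Rattus species were at 3.77 and 3.62, and probes for the constant region of gamma-2a at 2.62 and of gamma-2B at 1.81. None of these, picked from the 14 higher probes, overlapped a sham level. On day 7 the light chain probe was at 2.98, the kappa probe at 2.86 and the first Igha probe at 1.57. The probes of 1 chain can share sequence and are not independent of each other.

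Among symbol-bearing genes of B and plasma cells, 2 of 11 were higher and none lower, and only 2 of the 11 were well above background in sham. The others were kept through the injured channel alone and could hardly come out lower. The plasma cell receptor Tnfrsf17 was at least 2.59-fold higher and Jchain, which joins IgA units, at least 2.15-fold higher. Mzb1, a chaperone of antibody secretion, was at least 1.69-fold higher, all 3 with sham spots not well above background. The mean level of this list was 6.94 in injured muscle and 6.49 to 6.61 in the shams.

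The T and NK cell list had 36 measured genes with a median of 0.68. Higher were 15, of which 14 lay above all 4 shams by 2-fold, as did 510 of all 747 higher genes. One gene, described below, was lower than all 4 shams. The signalling chains of the T cell receptor led, Cd3g with 11.27 against 7.68 to 8.10 in the shams (10.8-fold higher) and Cd3d with 11.28 against 8.43 to 9.10 (6.28-fold higher). The beta chain of the receptor, Tcrb, had 9.85 against 6.62 to 7.00 (7.19-fold higher), although another of its probes was at -0.02. It was the only one at 2-fold of 26 measured T cell receptor chain probes found by description, whose median was 0.14. The granule protease Gzmm had 10.49 against 7.13 to 7.65 (7.21-fold higher), and Zap70, the kinase bound to the receptor, was at 2.16. The protease Gzmk and the NK receptors Klrd1 and Klra22 were at least 4.79-fold, 5.99-fold and 6.09-fold higher, with sham spots not well above background. All 36 genes were well above background in injured muscle, and 14 in sham. The others were kept through the injured channel alone and could hardly come out lower, so the counts and the median lean upward.

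CD8 was the exception in this list. Cd8a, the alpha chain of the co-receptor of cytotoxic T cells, which some rat macrophages also carry, had a level of 8.66 in injured muscle and 10.45 to 10.59 in the shams, and was 3.68-fold lower. Cd8b, its T cell-restricted partner, was at -0.49, and Foxp3 of regulatory T cells at -0.02. Cd8a was the 1 lower gene of the T and NK list.

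Chemokines lay on both sides of sham. Of 38 chemokine and receptor genes 11 were higher and 8 lower, with a median of 0.05. The B cell chemokine Cxcl13 had a level of 12.85 against 8.66 to 9.30 in the shams (16.1-fold higher). Ccl5, a ligand of T cells, had 10.98 against 6.90 to 7.39 (11.97-fold higher), and Ccl19, which draws T cells and dendritic cells, was at 2.42. The interferon-induced T cell ligands Cxcl10, with 11.41 against 8.22 to 8.55 (8.67-fold higher), Cxcl9 (2.25) and Cxcl11 (at least 5.99-fold higher) lie near each other on chromosome 14. On the same chromosome, the neutrophil ligands Cxcl2, with 6.28 against 8.58 to 8.87 (4.93-fold lower), and Cxcl1 (-2.06) were low. Monocyte ligands were low as well, Ccl2 with 11.00 against 12.84 to 13.80 (5.88-fold lower) and Ccl7 with 9.64 against no less than 11.72 in any sham (5.14-fold lower), both on chromosome 10, which also holds Ccl5.

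**Figure D3:**
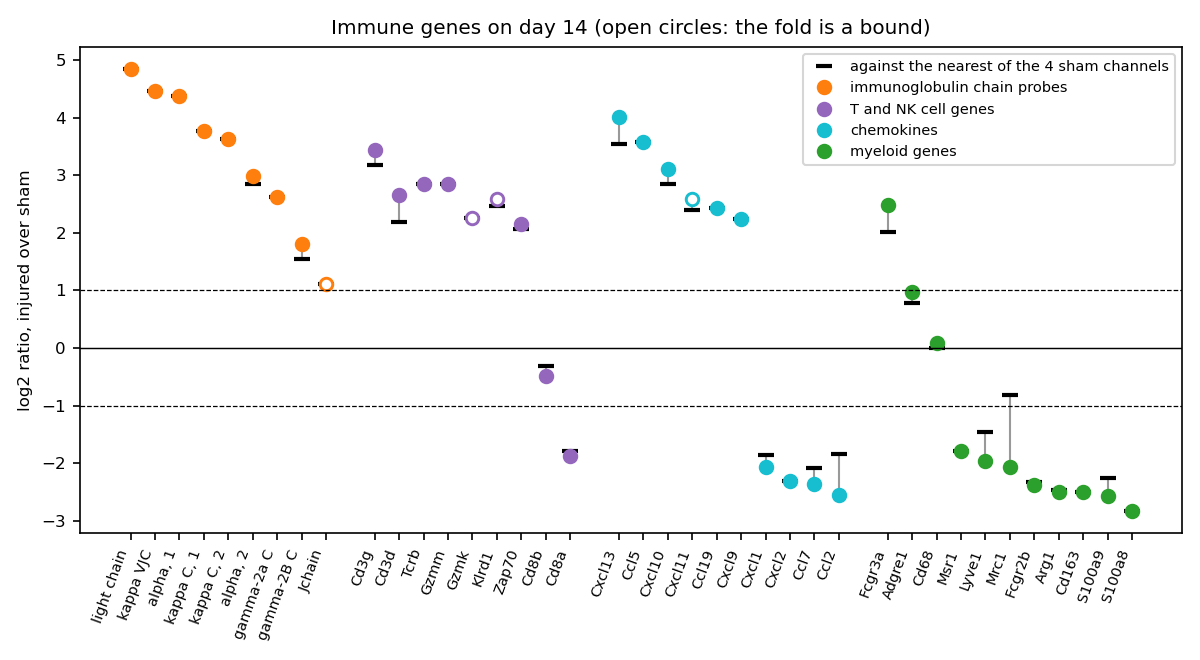
Log2 ratio of injured over sham muscle on day 14 for 9 immunoglobulin probes and for T and NK cell, chemokine and myeloid genes (circles, open where the fold is a bound), with the ratio against the nearest of the 4 sham channels (black bars) and dashed lines at 2-fold. The genes were picked from the farthest and the defining members of each group, with values in view, so their shares are not those of the groups. Cd3g and the immunoglobulin probes lie above 1, Cd8a below -1 and the chemokines on both sides.

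Macrophage and neutrophil genes lay mostly below sham. Of 34 macrophage genes 12 were lower and 1 higher, against 1.56% lower and 3.15% higher over all genes. Of the 12, 7 were lower than all 4 shams by 2-fold, as were 247 of all 370 lower genes. The list's median was -0.65. The median was -0.21 with plain centring on the median (-0.47 relative to all genes) and -1.06 with the deposited log ratio. The scavenger receptor Cd163, of resident and repair macrophages, had a level of 6.96 against 9.46 to 9.81 in the shams (5.66-fold lower). Arginase, Arg1, had 8.71 against 11.16 to 11.49 (5.66-fold lower) and the inhibitory Fc receptor Fcgr2b 9.97 against 12.30 to 12.43 (5.18-fold lower). Msr1, Lyve1 and Mrc1, the mannose receptor, were at -1.79, -1.95 and -2.06, the last only at -0.82 against the nearest sham. Fcgr3a, the activating Fc receptor of macrophages and NK cells, was the 1 higher gene at 2.48, and the pan-macrophage markers Cd68 and Adgre1 were at 0.09 and 0.98. All 34 genes were well above background in injured muscle. Of 21 neutrophil genes 3 were lower, S100a8 with 6.87 against 9.69 to 10.16 (7.09-fold lower), S100a9 with 6.69 against 8.95 to 9.997 (5.93-fold lower) and Ncf1 at -1.23. The alarmin pair lies on chromosome 2. Of 33 cytokine and receptor genes 4 were lower, led by the IL-33 receptor Il1rl1 (7.10 against 9.56 to 9.99, 5.52-fold lower), and 1 was higher, Il15, a growth factor of NK and memory T cells, at 1.25. Il6 was at -0.43.

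Genes induced by interferon stood above sham as a group. Of 40 measured members 21 were higher and none lower, with a median of 1.15. Of the 21, 18 were higher than all 4 shams by 2-fold, as were 510 of all 747 higher genes. The transcription factor Irf7, which amplifies type I interferon, had a level of 13.88 against 11.19 to 11.33 in the shams (6.08-fold higher). The ubiquitin-like modifier Isg15 had 13.59 against 11.05 to 11.44 (5.81-fold higher), and the nuclease Isg20, the GTPase Gbp2, Ifi44 and Ifi27 were at 2.41, 2.36, 2.34 and 2.33. The membrane tether Bst2 was at 2.10 and the synthetase Oas1a at 1.79. Ifi27l2b had the highest ratio, 3.45, but its shams ran from 10.39 to 12.80 and its other probe was at -0.06. Ifit1 at -0.70 and Ifitm1 at -0.57 were the 2 members below 0. The ubiquitin-like Ubd, which interferon and tumour necrosis factor induce, had 11.06 against 7.64 to 7.96 (8.54-fold higher).

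The promoters of many of these genes hold the letters of the interferon-stimulated response element, which STAT and IRF factors bind. The motif GAAANNGAAA was searched on both strands in the 250 bases before each gene start, in the RefSeq promoters of the assembly GRCr8. It was found in 902 of 27457 promoters (3.29%). Among measured genes with a promoter it was in 294 of 9736 (3.02%), in 34 of the 351 higher genes (9.69%) and in 4 of the 206 lower genes (1.94%). Of interferon list members with a promoter it was in 18 of 30 measured and in 10 of 14 higher ones. A match of letters does not show that a site is used, and some matches in 1 promoter overlap. The 120 bases before the start are shown for 3 of the higher members, 5′ to 3′ on the gene's strand, with matches in capitals.
Irf7, GRCr8 chr1:205800024-205800143, minus strand: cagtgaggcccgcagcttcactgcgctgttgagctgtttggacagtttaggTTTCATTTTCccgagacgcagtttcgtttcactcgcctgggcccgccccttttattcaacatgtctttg
Ifi44, GRCr8 chr2:243303841-243303960, minus strand: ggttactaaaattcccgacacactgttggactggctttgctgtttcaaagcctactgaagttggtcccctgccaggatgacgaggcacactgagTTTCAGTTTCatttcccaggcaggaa
Oas1a, GRCr8 chr12:41330346-41330465, plus strand: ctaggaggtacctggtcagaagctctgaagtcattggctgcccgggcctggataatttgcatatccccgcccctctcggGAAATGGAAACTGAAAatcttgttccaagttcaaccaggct
Irf7 and Ifi44 each hold 1 match in this window, read here as its reverse complement, and Oas1a holds 2 that overlap. Further motifs were searched in the same way. TGACNNNGC, of the antioxidant response element, was in 2793 of 27457 promoters (10.2%) and in 8 of 29 measured antioxidant genes. CTANNNNTAG, of the MEF2 site, was in 941 of 27457 (3.43%), in 0 of 12 fast and in 1 of 14 slow fibre genes.

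Antigen presentation followed in part. Of 21 class I genes 6 were higher and 1 lower, with a median of 0.77. The light chain B2m was saturated in injured muscle and at least 3.03-fold higher, the heavy chains RT1-CE1 and RT1-S3 were at 1.65 and 1.51, and the immunoproteasome subunits Psmb8 and Psmb9 at 1.52 and 1.503. The third such subunit, Psmb10, was at 0.62. The peptide carriers Tap1 and Tap2 were at 0.54 and 0.85, and the chaperone calreticulin, Calr, was the lower one at -1.14. The 30 measured subunits of the standard proteasome were all below 0, as were 10200 of all 23751 genes. The list's median was -0.37, and 3 members were lower, led by Psmd11 at -1.495 and Psmd3 at -1.23. With plain centring on the median the list's median turned to 0.38, which was 0.12 above that of all genes.

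Of 16 class II genes 4 were higher and 2 lower, with a median of 0.11. Of 11 measured class II chain probes found by description, which include several probes of 1 gene, 8 were higher and 1 lower, with a median of 1.65. The invariant chain Cd74 was at 2.05, RT1-Da at 2.00 and RT1-Db1 at 1.71. RT1-Bb, a class II beta chain, was measured by 2 probes of chromosome 20. The one that stands for the gene here, at chr20:4730533-4730583, had a level of 6.93 in injured muscle against 10.16 in its own sham and 9.79 to 10.37 in the others (9.38-fold lower). The other, at chr20:4732962 in rn4, had 10.85 against 8.76 in its own sham and 7.94 to 8.46 in the others (4.25-fold higher). The ratio of the first probe was 2.46 on day 7 against that array's own sham. A probe described as the RT1-D beta1 chain of haplotype k had 10.83 against 8.41 in its own sham and 7.70 to 8.20 in the others (5.38-fold higher on day 14), and was at -1.25 on day 7. The rats were outbred, the injured sample of each day came from another animal as far as the labels tell, and what part sequence differences at this locus had was not tested.

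Complement was among the groups with the most members above sham. Of the 25, 12 were higher and beyond all 4 shams by 2-fold, where 510 of all 747 higher genes also lay. The median was 0.55, and 2 were lower. Factor B, Cfb, of the alternative pathway had 12.32 against 9.01 to 9.496 (9.32-fold higher). Of the classical pathway, C1qa had 13.40 against 10.25 to 10.74 (7.50-fold higher), C4a was at 2.84, C1qb at 2.43 and C1s at 2.29, and its inhibitor Serping1 was at 2.29. C6 of the terminal pathway was at 2.52 and C3 at 1.67. The protease Cfi, which inactivates C3b, and the receptor C5ar1 were the lower ones at -1.72 and -1.47.

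**Figure D4:**
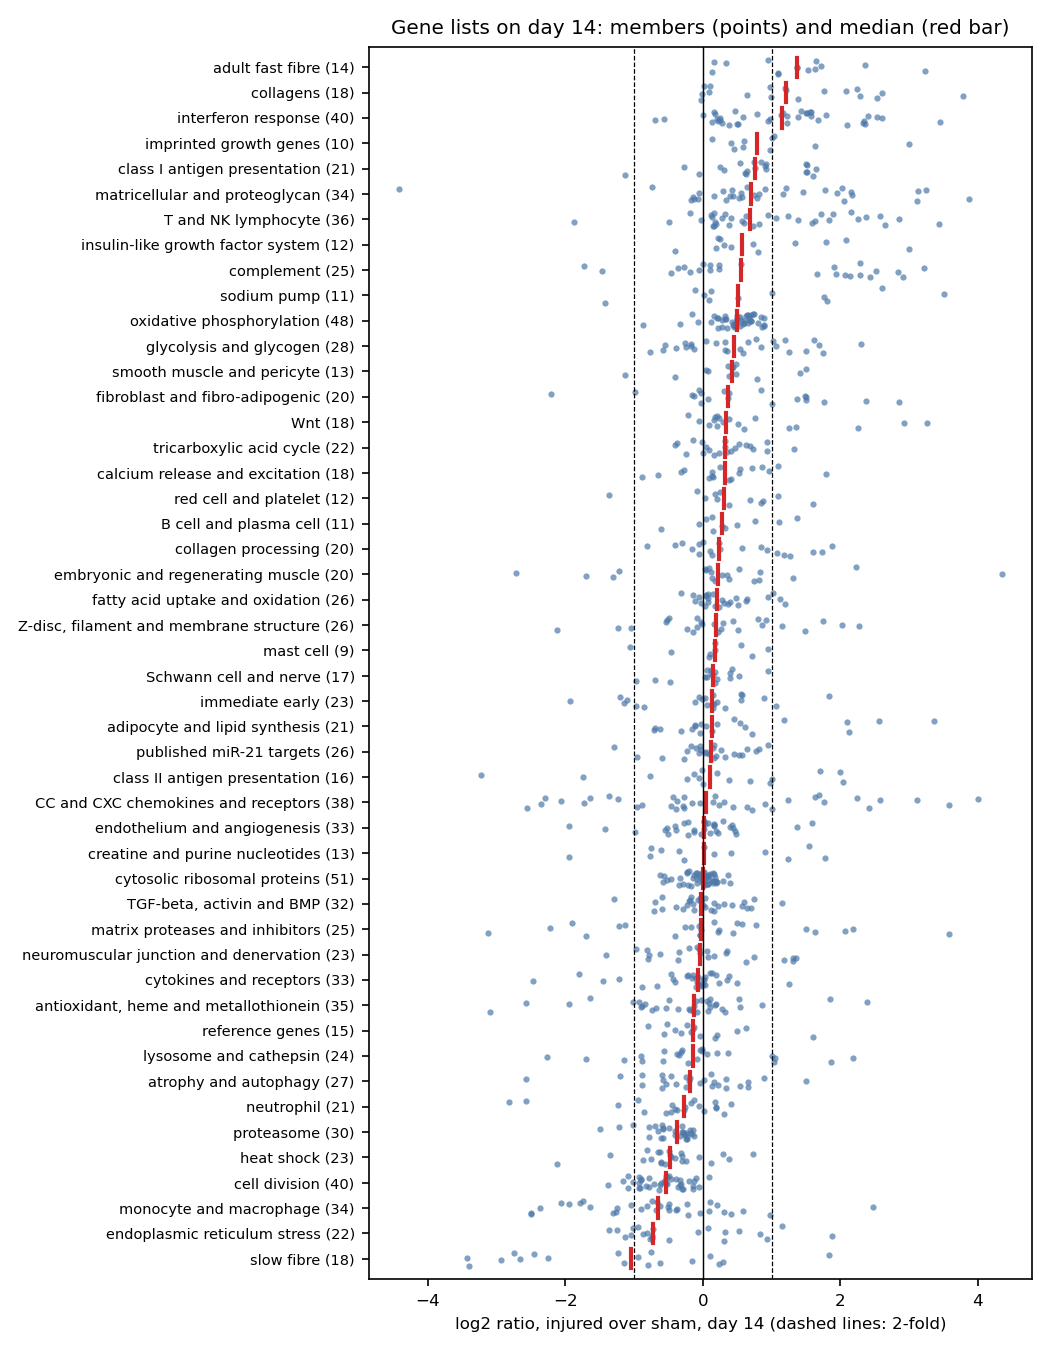
Log2 ratio of injured over sham muscle on day 14 for every measured member of 48 gene lists (points, number of members in brackets) and the median of each list (red bars), ordered by median, with dashed lines at 2-fold. The adult fast fibre list is at the top with a median of 1.37 and the slow fibre list at the bottom with -1.05.

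Several stress response lists lay below sham. Of 35 antioxidant, heme and metallothionein genes 5 were lower and 2 higher, with a median of -0.13 that turned to 0.21 with plain centring on the median (-0.06 relative to all genes). The aldo-keto reductase Akr1b8 had a level of 10.25 against 13.35 to 13.80 in the shams (8.54-fold lower), heme oxygenase Hmox1 9.70 against 11.47 to 11.80 (3.85-fold lower), and thioredoxin reductase Txnrd1 was at -1.64 and the quinone reductase Nqo1 at -1.01. The metallothioneins, which bind zinc and copper, lie together on chromosome 19 and divided. Mt1 had 10.96 against 13.52 to 13.98 (5.92-fold lower, with its other probe at -0.34) and a probe described as metallothionein-2 was at -2.30, whereas Mt3 had 9.61 against 6.68 to 7.24 (5.22-fold higher). Extracellular superoxide dismutase, Sod3, was at 1.85.

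Of 23 heat shock genes 19 were below 0, as were 10200 of all 23751 genes. The 2 lower ones were the small chaperones Cryab (at least 4.38-fold, with a saturated sham spot) and Hspb1 (-1.34). The list's median was -0.48, or 0.16 with plain centring on the median and -0.11 relative to all genes under it. Endoplasmic reticulum stress genes had a median of -0.73, or 0.03 with plain centring and -0.24 relative to all genes under it, and 5 of 22 were lower, led by the chaperone Hspa5 at -1.36, whereas Chac1 and Trib3, targets of the factor ATF4, were higher at 1.88 and 1.15. Cell division genes lay below sham almost throughout, with 39 of 40 below 0, against 10200 of all 23751 genes. The list's median was -0.54, and 5 members were lower. Of the 5, 1 was lower than all 4 shams by 2-fold. The cyclin-dependent kinase Cdk1 had 9.37 against 10.75 to 11.26 in the shams (2.60-fold lower), the helicase subunit Mcm6 was at -1.16, and Mki67, the proliferation marker, was at -0.55 but among the sham levels. Of lysosomal genes cathepsin L, Ctsl, was at -2.27 and cathepsin D, Ctsd, at -1.71, while cathepsin K, Ctsk, was at 2.19.

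Lipid genes were higher at a few points of synthesis. The desaturase Scd had 10.47 against 7.09 in its own sham and 6.67 to 7.61 in the others (10.4-fold higher) and its regulator Srebf1 had 11.99 against 9.42 to 9.79 (5.94-fold higher). The fat cell hormones Adipoq and Retn were at 2.12 and 2.09, and on day 7 at 0.02 and 0.42. Of 21 adipocyte genes 5 were higher and none lower, with a median of 0.13. In sham 17 of the 21 were well above background, and the others could hardly come out lower. Fasn, fatty acid synthase, was at -0.11 and the fat cell lipid carrier Fabp4 at 0.61. The mean level of the list was 8.67 in injured muscle and 8.06 to 8.22 in the shams, and what part fat tissue in the sample had was not tested. Endothelial and Schwann cell lists lay near sham at 0.02 and 0.15, with 2 higher and 2 lower of 33 and none of 17.

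Some of the farthest genes belonged to no list. Uridine-cytidine kinase Uck2 had 9.28 against 12.65 to 13.21 (10.3-fold lower), the fatty acid carrier Fabp5 12.58 against 14.59 to 15.08 (5.64-fold lower) and the calcium channel regulator Rrad 9.26 against 11.34 to 11.83 (5.62-fold lower). Natriuretic peptide B, Nppb, had 6.21 against 8.69 to 8.998 (6.17-fold lower), but its other probe was at 0.19. Apobec2, a muscle deaminase family protein, was saturated and at least 4.60-fold higher against its own sham, and at 0.99 against the nearest. Clrn1, at least 4.86-fold higher, had a sham spot not well above background.

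Published targets of miR-21 were examined because the study's title names it. Its mature sequence, from RefSeq (GRCr8), is given with the seed, bases 2 to 8, in capitals.
rno-miR-21-5p: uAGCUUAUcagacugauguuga
Of 26 measured targets none was higher and 1 was lower, with a median of 0.12 against 0.05 for all genes. Over all genes 3.15% were higher and 1.56% lower, so so few calls among 26 genes do not set the targets apart. The lower one was Tgfbi at -1.29, a matrix protein, whose other probe was at 0.02. The tumour suppressor Pdcd4 was at -0.06, the growth factor antagonist Spry1 at 0.81, the protease inhibitors Reck and Timp3 at 0.78 and 0.17. The level of the microRNA itself was not analysed here.

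**Figure D5:**
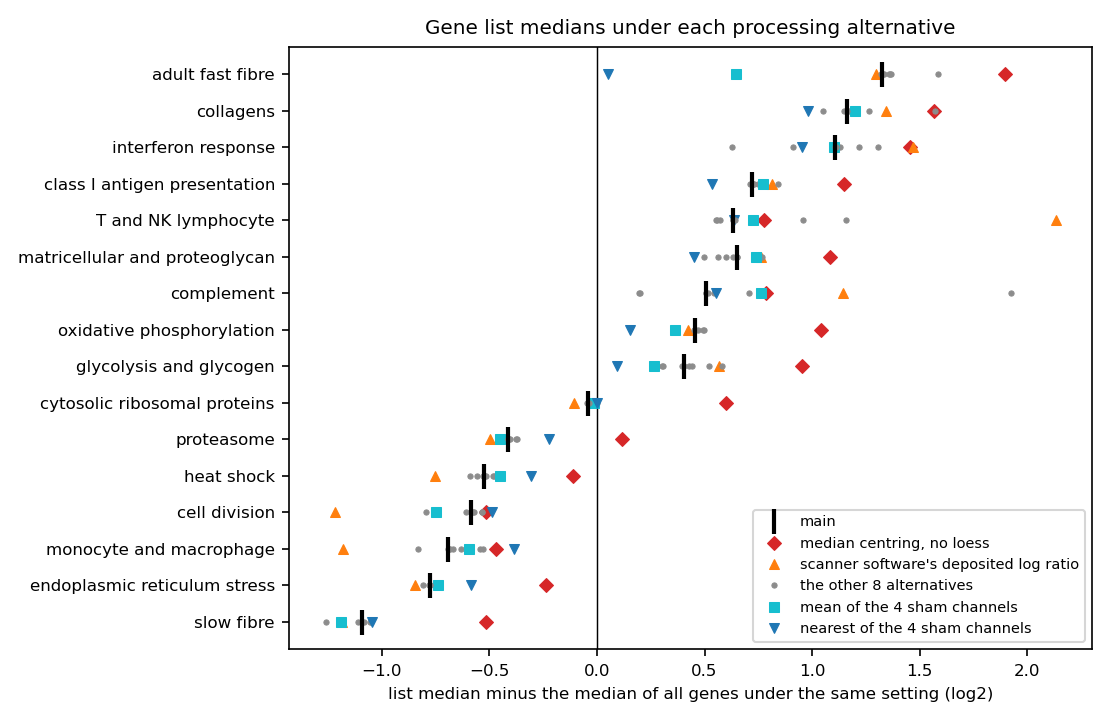
Median of 16 gene lists minus the median of all genes under the same processing setting (x axis, log2), with the main setting as a black bar and each of 12 alternatives as a marker. Fast fibre genes lie at 0.05 against the nearest sham channel, the proteasome list changes side with plain median centring, and the other lists but the ribosomal proteins stay on 1 side of 0 in the settings shown.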

How the data were processed

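Per the labels' protocols, total RNA was linearly amplified and dyes were built in during transcription. The deposited intensity of each spot is its mean brightness, given with a local background and not normalized. LogRatio, also deposited, is a log10 ratio of red over green after the scanner software's background and dye correction, per the file headers, and the authors' value table holds the same as a log2 ratio (40972 probes, largest difference 0.005, median 0). The submitters' processing notes name Agilent Feature Extraction 9.5.3.

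Ratios were computed with R 4.3.3 and limma 3.58.1: normexp background correction (offset 50), then loess, where controls and 20 flagged outliers had weight 0. Single-channel levels were quantile-normalized on mean brightness (Aquantile) and are open to dye bias. The probe with the highest mean over all channels of the 4 arrays stood for its gene, which need not be the brighter on day 14. Genes not well above background in either channel were left out. Those kept through the injured channel alone could hardly be called lower. Saturated spots were kept. A fold with a saturated or dim spot is a bound, with dim spots set at no less than the lowest level well above background. In the injured channel 66.6% of probes stood well above background and 37 were saturated, in the sham channel 46.4% and 2. For 40 probes printed 10 times, the median SD of the log2 ratio was 0.04, which is spot noise and not the spread between animals.

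Names came from RefSeq genes of GRCr8 and coordinates are those of the files (rn4). Which exon or untranslated part a probe lies in was not analysed here. The 48 lists and the named genes were chosen with earlier results of these data known. Named were the 20 highest and 20 lowest genes, the 10 farthest bounds, the 5 highest and lowest members of each list and a fixed set, of which a selection is printed, and some are not reported here. Genes singled out for other reasons, and probes found by description, were picked with values in view. The background correction and loess were run on a simulated array with known changes. Those changes were equal in number in both directions, unlike the calls here. The quantile step and the alternatives were not simulated. Python 3.11.15 and pandas 2.3.3 were used for tables.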

Additional observations from a re-analysis of the deposited data

Results flagged for a closer look

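Of 546 genes at least 2-fold from sham on both day 7 and day 14, 7 lay in opposite directions, 5 of them higher on day 14 and 2 lower. The difference between the days was not tested, each day having 1 array. Named among these are the calcium buffer Pvalb, at 2.37 on day 14 and -3.38 on day 7, the muscle fructose bisphosphatase Fbp2, at 1.495 and -1.15, and Mlf1, a factor also found in muscle, at 1.14 and -2.14. The class II probe that stands for RT1-Bb was at -3.23 and 2.46, and the probe of the RT1-D beta1 chain at 2.43 and -1.25. For Pvalb the injured level was above all 4 shams on day 14, and for RT1-Bb below all 4.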

How the results depend on the processing

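Each result was recomputed under 12 alternatives, 11 of them listed at the outset and 1, the software's fitted background surface, chosen after seeing the data. Counts of higher and lower genes kept within 1.5 times of 747 and 370 in 19 of 24 cases. With median centring in place of loess there were 2884 higher and 96 lower, which shared 747 and 95 genes with the main result. With the scanner software's deposited log ratio there were 4085 higher and 1523 lower, and with a normexp offset of 16 there were 573 lower. The cause was not tested. Of the lists with a median of at least 1 in size, adult fast fibre came to 0.666 against the mean of the 4 shams and 0.052 against the nearest. Slow fibre came to -0.25 with median centring, collagens to 0.98 against the nearest sham, and interferon response to 0.96 with the mean of a gene's probes, 0.66 with the probe nearest sham and 0.95 against the nearest sham. With a gene's probe nearest sham, direction turned for Tgfbi (0.015), Tcrb (-0.021), Ifi27l2b (-0.059), RT1-Bb (2.09) and Nppb (0.19). Of 181 named genes at least 2-fold from sham, 128 kept that side under each alternative that gave them a value and 53 did not. Of the 60 named lower genes, 19 fell short of 2-fold with median centring, among them Myog (-0.42), Itga7 (-0.44), Calr (-0.45), Hspa5 (-0.55) and Cdk1 (-0.68). No paired analysis was possible because there is 1 array and the labels give no second replicate. No replicate could be left out for the same reason. Signal over background limits genes such as Mmp10 and Mmp3, whose injured spots lay near the floor of 5.88.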

Other observations

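Sham levels bear on several results. The lowest of the 4 sham levels was 14.72 for Spp1, 12.84 for Ccl2, 14.59 for Fabp5 and 14.46 for Ctsl, so their low ratios on day 14 compare with bright sham spots. For Myosin-8 the 4 sham levels spanned 6.27 to 10.26. No unoperated muscle was measured here. Around the 2-fold limit, 474 genes lay between 1.8-fold and 2.2-fold higher and 347 between 1.8-fold and 2.2-fold lower. Cytosolic ribosomal proteins, 51 measured, had a median of 0.01 with none at 2-fold, and 15 reference genes had a median of -0.15 with B2m the only one at 2-fold. Of 9 mast cell genes 1 was lower, with Mcpt1 and Cpa3, mast cell proteases, at 0.95 and 0.71. Vcam1 and Kdr, of vessel walls, were at 1.58 and 1.37, and the early gene Nr4a1 at 1.84, while Ier3 and Myc were at -1.93 and -1.20.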
